A study of Rattus norvegicus with 105 samples.

Results

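Primary rat hepatocytes exposed to 10 mM nitromethane (NM) for 24 hours were compared with 2 kinds of untreated cells, and the account below turns on the transcripts that differed from both. The group is 3 of the 105 libraries of the study, chosen by their labelled compound and concentration. It was set first against 3 wells of plain culture medium and then against 3 wells of the vehicle dimethyl sulfoxide (DMSO). All cells were hepatocytes from female Sprague-Dawley rats, from a single commercial lot, grown on collagen in 96-well plates in Williams' E medium with serum, insulin, transferrin and selenium. The animals' age is not in the sources used here. The labels call the 3 libraries of a group biological replicates, but all wells hold cells of one lot, so a p-value covers variation among wells only. RNA was read with TempO-Seq, in which paired detector oligonucleotides are ligated on a target RNA, amplified and counted. The NM wells lay in plate row H, medium in row A and DMSO in row B, and lower NM concentrations filled the rows above NM 10 mM, so concentration and plate row cannot be told apart. Sample titles give the concentrations in µM and the protocol gives mM, which is used here. DMSO is titled 0.5 and given as 0.2% in the protocol. Whether the NM wells held DMSO is not stated.

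Nitromethane is the smallest nitroalkane, a solvent and fuel. Cells adjust cholesterol synthesis through SREBP2, a transcription factor held in the endoplasmic reticulum by SCAP and the INSIG proteins when sterols are plentiful. When sterols fall, SREBP2 is released and raises the genes of nearly every enzyme of the pathway, and Insig1 itself is among its target genes. The liver is a main site of this synthesis.

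The promoters of 3 of the cholesterol genes that were lower in NM 10 mM cells are printed from RefSeq (build GRCr8), each from 250 bases before to 50 bases after the annotated start, 5′ to 3′ on the gene's strand. Capitals mark the pentamer CCAAT read on either strand (ATTGG on the reverse), a letter pattern often found beside sterol response elements.

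Insig1 promoter, chr4:8057720-8058019 (- strand): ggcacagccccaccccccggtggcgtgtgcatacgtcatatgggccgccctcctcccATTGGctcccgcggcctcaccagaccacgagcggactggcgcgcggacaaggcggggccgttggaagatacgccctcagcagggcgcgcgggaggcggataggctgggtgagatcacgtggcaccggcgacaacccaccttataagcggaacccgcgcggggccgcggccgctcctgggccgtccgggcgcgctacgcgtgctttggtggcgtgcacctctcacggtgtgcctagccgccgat

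Cyp51 promoter, chr4:30991443-30991742 (+ strand): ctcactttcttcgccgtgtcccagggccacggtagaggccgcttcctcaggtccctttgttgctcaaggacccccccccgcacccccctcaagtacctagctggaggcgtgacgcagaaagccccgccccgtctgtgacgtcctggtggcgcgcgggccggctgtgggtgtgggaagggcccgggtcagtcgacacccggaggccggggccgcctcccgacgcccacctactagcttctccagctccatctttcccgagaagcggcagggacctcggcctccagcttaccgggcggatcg

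Mvk promoter, chr12:47819454-47819753 (- strand): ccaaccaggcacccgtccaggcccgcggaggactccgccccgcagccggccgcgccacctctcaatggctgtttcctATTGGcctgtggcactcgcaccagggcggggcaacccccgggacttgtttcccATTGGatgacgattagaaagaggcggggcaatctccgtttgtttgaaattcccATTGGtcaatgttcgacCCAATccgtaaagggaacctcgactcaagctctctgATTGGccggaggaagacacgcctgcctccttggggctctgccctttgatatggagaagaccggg

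Of the 6 cholesterol genes lower with both controls, 5 had an entry in the promoter table. The pattern CCAAT was present in 3 of these 5 windows (Insig1, Lss and Mvk), against 37.5% of all 33469 windows. One spelling of the sterol response element, TCACNCCA on either strand, was present in 0 of 5 and in 3.89% of all windows. With no TCACNCCA match in the 5 windows, the patterns do not overlap there. These matches describe letters only.

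Total counts of the 9 libraries ran from 7682982 to 9015406, and 13675 to 14398 of 22253 probes had a count. Levels are given in CPM, counts scaled to a common library size with TMM factors, and a count of 3 corresponds to 0.333 to 0.39 CPM in these libraries. NM 10 mM replicate 3 stood apart. Its correlation with the other NM 10 mM libraries was 0.876 and 0.883 over 9043 probes, on log2 values, while those correlated at 0.992 with each other. The most similar library to it was NM 3 mM replicate 1 (0.977). It differed from the mean of its group mates by more than 2 log2 units at 371 probes, 330 of them lower. Its deviations followed those of NM 3 mM replicate 1 (r = 0.94 across probes) and NM 1 mM replicate 1 (0.884), which stand apart from their own groups as well. More than 1 log2 unit separated it from its group mates at 25.3% of all probes compared, and at 0 of the 67 probes described next. Those 67 passed a test in which spread among wells counts against a call, so the 0 was partly set by that choice. It does not show that the calls are free of replicate 3. The main results are given with NM 10 mM replicate 3 and, where that changes a call, without these 3 libraries.

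Hepatocyte markers were expressed in all groups. Albumin (Alb) averaged 2237 CPM in NM 10 mM cells, 2345 CPM in medium cells and 3716 CPM in DMSO cells. The 8 hepatocyte markers summed to 10820 to 11280 CPM in NM 10 mM, 9496 to 12160 CPM in medium and 19440 to 21390 CPM in DMSO. Lymphocyte and erythroid markers summed to at most 0.44 CPM in any of the 9 libraries, with 7 of 9 and 2 of 3 probes without a count in any of them. Kupffer cell markers summed to 3.49 to 4.8 CPM in NM 10 mM, 1.98 to 3.61 CPM in medium and 4.07 to 6.03 CPM in DMSO, and endothelial markers to at most 2.59 CPM. The stellate cell list summed to 653 to 728 CPM in NM 10 mM, 649 to 706 CPM in medium and 571 to 642 CPM in DMSO, nearly all of it from Reln and Vim, while Col1a1, Pdgfrb and Dcn had no count in any of the 9. Cholangiocyte markers summed to 1259 to 1759 CPM in NM 10 mM, against 1047 to 1169 CPM in medium and 881 to 1024 CPM in DMSO, with 0 of 8 tested probes called against medium and 4 higher against DMSO. The largest of them was Sox9, at 691 CPM in NM 10 mM, 428 CPM in medium and 345 CPM in DMSO. This list's part in the changes below was not tested.

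The question was which transcripts differ in NM 10 mM cells whichever control is used. Genes of cholesterol synthesis were the main named group among those lower with both controls, and the probes higher with both included profilin 1 (Pfn1), the transcription factor gene Klf6 and the splicing kinase gene Clk1. In edgeR's quasi-likelihood test with Benjamini-Hochberg adjustment, fitted to 30 libraries (8 NM concentrations, medium and DMSO), 94 of 12261 probes differed from medium (0.767%; 71 higher, 0.579%, and 23 lower, 0.188%) and 977 from DMSO (7.97%; 551 higher, 4.49%, and 426 lower, 3.47%). With both controls and the same sign there were 67 (0.546%), 51 higher (0.416%) and 16 lower (0.13%), and 0 had opposite signs. At all 67 the 3 NM 10 mM libraries lay outside the range of the 6 control libraries, as they did at 5.3% (above) and 4.72% (below) of all probes. The 67 were chosen by tests against these same 6 libraries, so their separation was largely set by that choice and adds no support. All 67 were also called, in the same direction, against the 12 libraries of NM at 0.003 to 0.1 mM, where 832 probes were called (6.79%; 4.98% higher and 1.8% lower). These 3 comparisons share the NM 10 mM libraries. In pooled wells, fewer cells of a type and less RNA per cell cannot be told apart.

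The size of these counts rested on the libraries in the fit. Without NM 10 mM replicate 3, NM 3 mM replicate 1 and NM 1 mM replicate 1, 182 probes were called with both controls, 64 of the 67 among them. In a fit of only the 9 libraries compared, 1 probe (Rab14) was called with both; without NM 10 mM replicate 3 that fit called 237, again with 64 of the 67. In the fit of 30 libraries the count of 67 became 115 without NM 10 mM replicate 1, 40 without replicate 2 and 18 without replicate 3, and it became 14 without medium replicate 1 and 11 without medium replicate 2. Of the 67 themselves, 60, 34, 17, 12 and 11 stayed called without these 5 libraries in turn. Against medium the counts without these 5 libraries were 170, 55, 23, 15 and 12. Against DMSO the count was 560 without NM 10 mM replicate 3, 583 without DMSO replicate 1 and 577 without DMSO replicate 2. The count against NM at 0.003 to 0.1 mM was 1268 without NM 10 mM replicate 1 and 228 without replicate 3.

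**Figure D1:**
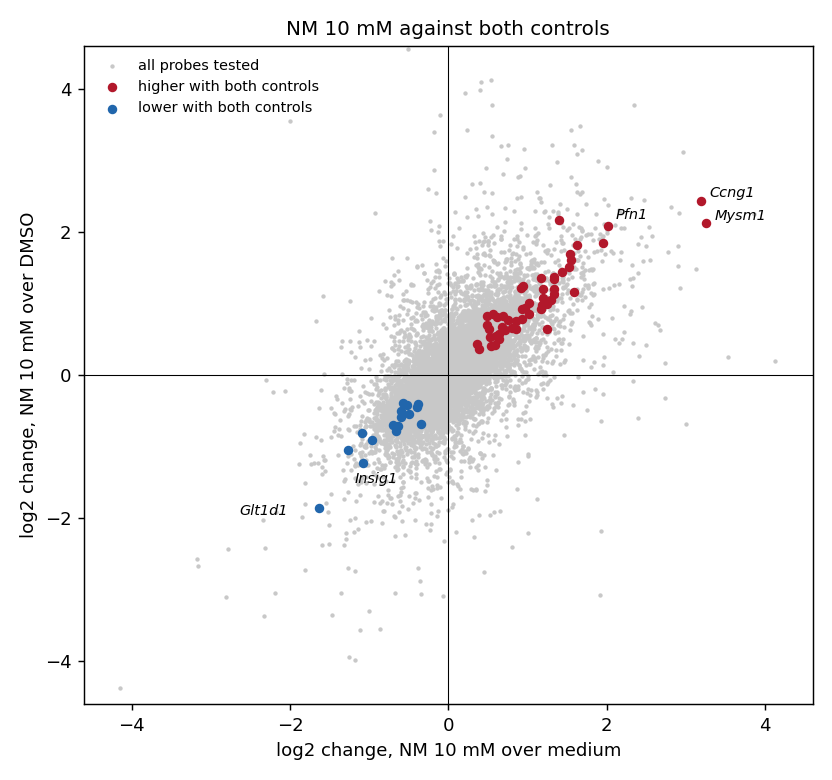
Log2 change of each probe in NM 10 mM over medium (x axis) and over DMSO (y axis), for the 12261 probes tested (grey; 3 lie outside the axes). The 51 probes higher with both controls (red) reach to Ccng1 and Mysm1, and the 16 lower with both (blue) reach down to Glt1d1.

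Insig1, which encodes the ER anchor of the SREBP machinery, had 422, 358 and 276 CPM in the NM 10 mM libraries, against 826, 773 and 643 CPM in medium and 913, 813 and 758 CPM in DMSO. Every NM 10 mM well was below every control well. The log2 change was -1.08 ± 0.17 (SE) against medium (adjusted p = 0.00241) and -1.23 ± 0.17 against DMSO (adjusted p = 2.89e-05), so that the NM 10 mM level was 47.2% of medium and 42.6% of DMSO. It remained called against both controls when any 1 of the 9 libraries was left out. In the fit of only the 9 libraries the adjusted p against medium was 0.0799.

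Cyp51, the sterol 14-alpha-demethylase, had 155, 166 and 159 CPM in NM 10 mM, against 269, 271 and 243 CPM in medium and 269, 265 and 247 CPM in DMSO. The NM 10 mM wells lay close together, and the change was -0.70 ± 0.09 against either control (adjusted p = 0.000552 against medium and 1.44e-05 against DMSO). Fdft1, squalene synthase, the first step committed to sterols, had 129, 127 and 114 CPM in NM 10 mM, against 220, 184 and 175 CPM in medium and 221, 203 and 181 CPM in DMSO. Its change was -0.64 ± 0.10 against medium (adjusted p = 0.00252) and -0.71 ± 0.10 against DMSO (adjusted p = 6.95e-05). Both genes fell by amounts well beyond the spread between wells.

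Acat2, the thiolase that joins acetyl-CoA units at the head of the pathway, had 77.1, 56.5 and 42.1 CPM in NM 10 mM, against 121, 130 and 124 CPM in medium and 104, 106 and 99.6 CPM in DMSO. The change was -1.09 ± 0.20 against medium (adjusted p = 0.00868) and -0.81 ± 0.20 against DMSO (adjusted p = 0.0101), and both calls were lost without NM 10 mM replicate 3, that against medium also without medium replicate 2. Lss, lanosterol synthase, which closes the sterol rings, had 33.9, 23.4 and 15.4 CPM in NM 10 mM, against 53.8, 48.7 and 39.8 CPM in medium and 51.9, 45.8 and 39.4 CPM in DMSO, a change of -0.96 ± 0.22 against medium (adjusted p = 0.0337) and -0.91 ± 0.22 against DMSO (adjusted p = 0.0101). Mvk, mevalonate kinase, had 34.8, 30.9 and 27.3 CPM in NM 10 mM, against 42.4, 52.1 and 46.3 CPM in medium and 42.6, 45.6 and 43.8 CPM in DMSO, a change of -0.59 ± 0.13 against medium (adjusted p = 0.0212) and -0.50 ± 0.13 against DMSO (adjusted p = 0.0132). NM 10 mM replicate 3 was the lowest of its group for Insig1, Fdft1, Acat2, Lss and Mvk, and the NM wells did not overlap the control wells for any of them. The calls of Lss and Mvk against medium were lost without NM 10 mM replicate 2 or 3 and without medium replicate 1 or 2, and that of Mvk also without medium replicate 3. Against DMSO both were lost without NM 10 mM replicate 3, Lss also without DMSO replicate 1 and Mvk without DMSO replicate 2.

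**Figure D2:**
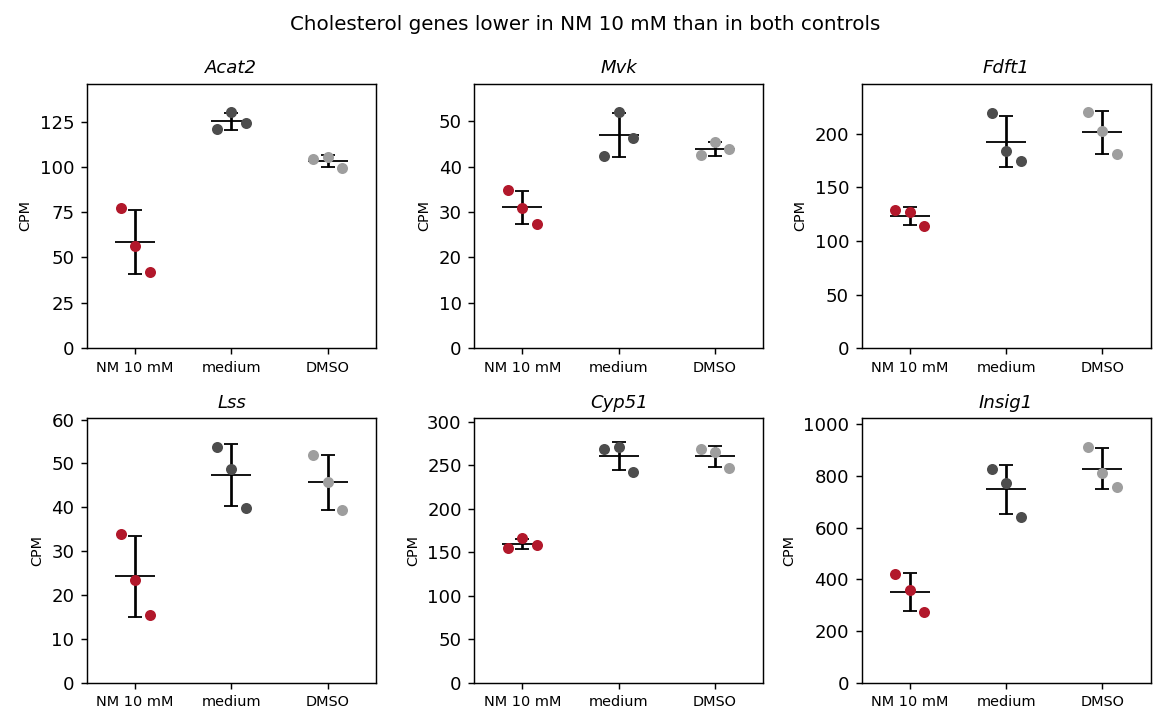
CPM of 6 cholesterol genes in each of the 3 NM 10 mM, 3 medium and 3 DMSO libraries (points; the bar is the mean and the whiskers 1 SD, on axes that start at 0). For Insig1 the NM 10 mM wells sit at 276 to 422 CPM and the control wells at 643 to 913 CPM.

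Of 17 cholesterol synthesis enzymes tested, 5 fell against medium, 11 against DMSO and 9 against NM at 0.003 to 0.1 mM, and 0 rose. The 5 that fell with both controls were Acat2, Mvk, Fdft1, Lss and Cyp51. The median change of the 17 was -0.59 against medium, -0.70 against DMSO and -0.47 against the low NM concentrations, beside 0.03, 0.02 and 0.02 over all probes. Called against DMSO but not medium were Idi1, Fdps, Sqle, Nsdhl and Dhcr7, among others. Sqle, squalene epoxidase, averaged 125 ± 3.7 CPM in NM 10 mM (SD, n = 3 in each group), 185 ± 22 CPM in medium and 207 ± 29 CPM in DMSO, with a change of -0.56 against medium (adjusted p = 0.0636). Nsdhl, a later sterol dehydrogenase, had changes of -0.02 against medium (adjusted p = 0.929) and -0.56 against DMSO (adjusted p = 0.00821). For these genes the choice of control decided the call.

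Hmgcs1, HMG-CoA synthase, had 9.06, 7.69 and 0.602 CPM in NM 10 mM, against 17.2, 18.4 and 13.5 CPM in medium and 22.9, 19.7 and 12.9 CPM in DMSO. All NM 10 mM wells were below all control wells, but replicate 3 lay far below its mates, and neither call passed (-1.48 ± 0.59, adjusted p = 0.229 against medium; -1.66 ± 0.59, adjusted p = 0.0868 against DMSO). Without the 3 libraries that stand apart, Hmgcs1 was called against medium (-0.96, adjusted p = 0.0205) and DMSO (-1.13, adjusted p = 0.000695), as was Sqle (-0.55, adjusted p = 0.012, and -0.71, adjusted p = 0.000105). In that fit 7 of the 17 enzymes were lower with both controls, beside 54 probes lower with both among all those fitted.

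**Figure D3:**
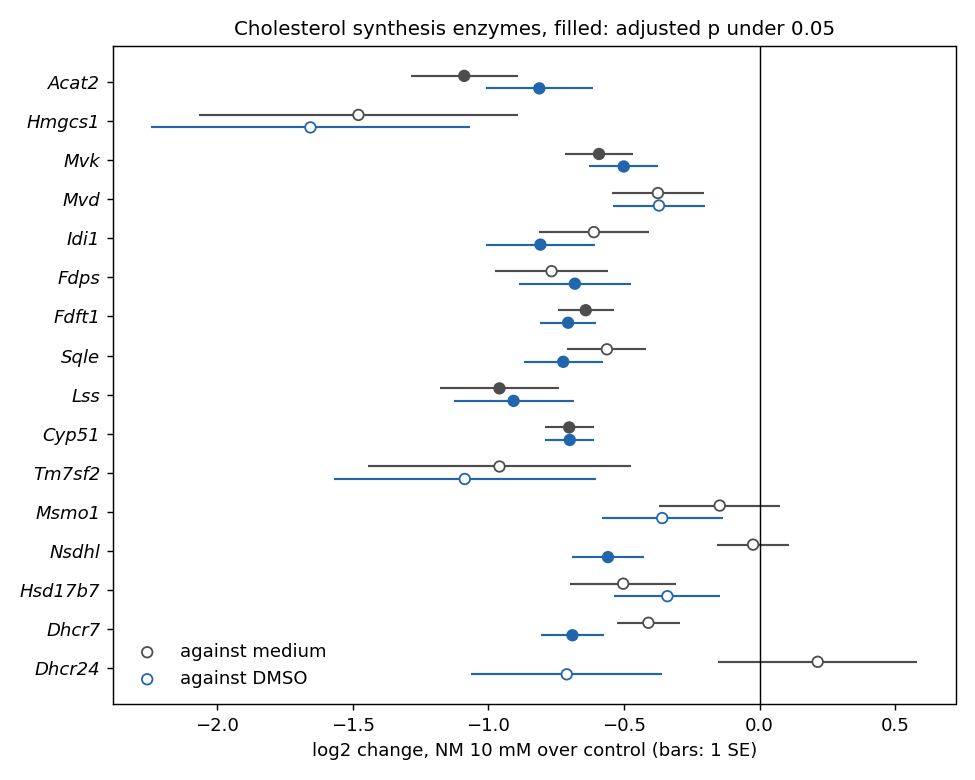
Log2 change of 16 of the 17 cholesterol synthesis enzymes in NM 10 mM over medium (grey) and over DMSO (blue), with bars of 1 SE, ordered along the pathway from Acat2. Filled points passed an adjusted p of 0.05, and the point against medium for Nsdhl sits at -0.02.

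Of 16 tested probes for sterol sensing and cholesterol uptake, Insig1 was the 1 called with both controls. The median change of this list was -0.20 against medium and -0.29 against DMSO. Srebf2, which encodes SREBP2, averaged 260 ± 3.2 CPM in NM 10 mM, 298 ± 15 CPM in medium and 282 ± 7.5 CPM in DMSO, with changes of -0.19 (adjusted p = 0.204) and -0.12 (adjusted p = 0.321). Soat1, which esterifies cholesterol, was at 15.6, 14.3 and 16.9 CPM in NM 10 mM, against 8.27, 10.6 and 6.87 CPM in medium and 7.99, 8.97 and 8.38 CPM in DMSO. Its change was 0.87 ± 0.27 against medium (adjusted p = 0.123) and 0.88 ± 0.27 against DMSO (adjusted p = 0.0394).

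The other 10 probes lower with both controls came from no single list. Glt1d1, a glycosyltransferase-like gene, had 14, 9 and 10 counts in NM 10 mM, against 42, 32 and 25 counts in medium and 36, 45 and 34 counts in DMSO (-1.64 ± 0.38, adjusted p = 0.034, and -1.86 ± 0.38, adjusted p = 0.00216), so it rests on few counts. Smlr1 had 5.56, 5.72 and 3.37 CPM in NM 10 mM, against 9.67, 15.3 and 10.5 CPM in medium and 12.8, 8.49 and 9.28 CPM in DMSO. Prkaa2, a catalytic subunit of AMP-activated protein kinase, a sensor of cellular energy, had 51.4, 43 and 41.4 CPM in NM 10 mM, against 72, 61.1 and 58.4 CPM in medium and 65.1, 70.2 and 62.5 CPM in DMSO. Its change was -0.49 ± 0.11 against medium (adjusted p = 0.0366) and -0.54 ± 0.11 against DMSO (adjusted p = 0.00341). Orai3, a store-operated calcium channel subunit, fell by 0.60 and 0.59. Cyb5b and Cisd1, proteins of the mitochondrial outer membrane, fell by 0.40 and 0.34 against medium and by 0.44 and 0.69 against DMSO. Tbcc (a tubulin folding cofactor), Ly6g6c and LOC100362149 were also among the 10. Against medium, the calls of Prkaa2, Orai3, Cyb5b, Cisd1, Tbcc, Ly6g6c and LOC100362149 were lost without NM 10 mM replicate 2 or 3. Those calls were also lost without medium replicate 1 or 2. Over all 16 the smaller of the changes against medium and DMSO ran from -1.64 to -0.34.

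Pfn1, profilin 1, which delivers actin monomers to growing filaments, had 22.8, 25.7 and 17.9 CPM in NM 10 mM, against 6.41, 6.41 and 3.72 CPM in medium and 5.53, 7.05 and 3.17 CPM in DMSO. The groups did not overlap, and the change was 2.01 ± 0.43 against medium (adjusted p = 0.0219) and 2.08 ± 0.44 against DMSO (adjusted p = 0.00308), about 4.03 times medium and 4.23 times DMSO. The call against medium was lost without NM 10 mM replicate 2 and without each medium library in turn. Pfn1 was 1 of 2 among 48 actin cytoskeleton probes that rose with both controls. The list had 2 rises against medium and 18 against DMSO with 1 fall, and its median change was 0.04 and 0.26. Tmsb4x, the actin monomer binder thymosin beta 4, was called against DMSO only, at 693 ± 48 CPM in NM 10 mM, 420 ± 19 CPM in medium and 351 ± 54 CPM in DMSO, with 0.73 against medium (adjusted p = 0.161) and 0.98 against DMSO (adjusted p = 0.011).

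Other probes that rose with both controls lay outside this list, and those given next were picked from the 51. Slc9a3r1, the scaffold NHERF1 of the bile canalicular membrane, had 58.6, 63.9 and 83.8 CPM in NM 10 mM, against 31, 27.7 and 32.5 CPM in medium and 33.6, 33.6 and 37.3 CPM in DMSO (1.18 ± 0.18, adjusted p = 0.00241, and 0.98 ± 0.18, adjusted p = 0.00101). Ctnnd1, p120 catenin of adherens junctions, had 765, 897 and 1201 CPM in NM 10 mM, against 639, 548 and 679 CPM in medium and 548, 596 and 491 CPM in DMSO. Its smallest NM value exceeded the largest control value. Tuba1c, an alpha tubulin whose probe may read near-identical tubulin genes, rose by 0.93 and 0.92. Its call against medium was lost without NM 10 mM replicate 1 or 2 and without each medium library in turn. Ccdc88a (girdin) rose by 1.25 and 0.99, Fnbp1l by 0.85 and 0.76, and Podxl (podocalyxin) by 0.92 and 0.78.

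Klf6, a zinc finger transcription factor of injured liver, had 56.2, 57.8 and 98.5 CPM in NM 10 mM, against 22.5, 25.3 and 25.7 CPM in medium and 23.6, 22.7 and 19.4 CPM in DMSO. The change was 1.53 ± 0.25 (adjusted p = 0.00252) and 1.69 ± 0.25 (adjusted p = 6.95e-05). Clk1, a kinase that phosphorylates splicing factors, had 27.4, 26.5 and 31.4 CPM in NM 10 mM, against 10.1, 10.3 and 9.24 CPM in medium and 11.4, 10.9 and 7.7 CPM in DMSO, a change of 1.52 ± 0.24 (adjusted p = 0.00252) and 1.51 ± 0.24 (adjusted p = 0.000233). Both genes were far above every control well. Other nuclear genes that rose with both controls were Irf2bp2 (1.19 and 1.07), Ccar1 (1.19 and 1.2), Bcl9, a cofactor of beta-catenin (1.34 and 1.37), Hnrnpk (0.53 and 0.41), Exosc5, a subunit of the RNA exosome (1.44 and 1.44), and Qser1 (0.96 and 0.94).

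Among the 51 probes that rose, the 2 with the largest changes against medium were weakly detected. Ccng1, cyclin G1, a target of p53, had 53, 40 and 51 counts in NM 10 mM, against 7, 0 and 8 counts in medium and 12, 6 and 7 counts in DMSO. The change was 3.19 ± 0.60 against medium (adjusted p = 0.0103) and 2.44 ± 0.56 against DMSO (adjusted p = 0.00671), and its call against medium was lost without medium replicate 1 or 2. It was the 1 of 28 p53 target probes that rose with both controls, and the median change of that list was -0.07 against medium and 0.13 against DMSO. Mysm1, a histone H2A deubiquitinase, had 36, 29 and 66 counts in NM 10 mM, against 6, 3 and 4 counts in medium and 7, 9 and 13 counts in DMSO (3.26 ± 0.58, adjusted p = 0.00684, and 2.12 ± 0.53, adjusted p = 0.0115).

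The remaining rises were smaller or less easily grouped. Ubiquitin enzymes among them were Ube2k (0.67 and 0.67), Ube2e3 (0.69 and 0.82) and the deubiquitinase Otud1 (0.48 and 0.70). Aass, which begins lysine breakdown, had 48.8, 51.3 and 66.2 CPM in NM 10 mM, against 27.8, 23.1 and 35.5 CPM in medium and 23.5, 25 and 21.9 CPM in DMSO (0.94 ± 0.20, adjusted p = 0.0212, and 1.24 ± 0.20, adjusted p = 0.000259). Dusp10, a phosphatase that switches off stress kinases, rose by 0.56 and 0.86, and Sdc3, a heparan sulfate proteoglycan, by 0.92 and 1.22. The smallest rises were those of Cct5, a chaperonin subunit (0.36 and 0.43), and Pafah1b2 (0.38 and 0.36). NM 10 mM replicate 3 was the highest of its group at 37 of the 51 and the lowest at 13 of the 16 that fell. How often it was the highest or lowest over all probes was not counted, so these counts do not show a trait of the members.

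Several of the probes that rose stood beside another probe for the same gene symbol that was not called. There were 7 such probes, of 6 symbols, and 0 were called against medium or DMSO. At 6 of the 7 the mean CPM over the 9 libraries was higher than at the probe that rose. For these symbols the rise was therefore called at 1 probe only. A missed call does not show that the other probe was unchanged. Rab14, a small GTPase of endosomes, had 31.3, 29.4 and 31.3 CPM in NM 10 mM, against 9.78, 11.6 and 9.24 CPM in medium and 14.4, 14.4 and 12.5 CPM in DMSO by the probe that rose (1.59 ± 0.24, adjusted p = 0.00241, and 1.16 ± 0.24, adjusted p = 0.00225). Its other probe, at a mean of 73.6 CPM over the 9 libraries beside 18.2 CPM, had changes of -0.60 (adjusted p = 0.412) and -0.74 (adjusted p = 0.26). Ugt1a9, whose exons are shared with other Ugt1a genes, rose by 0.60 and 0.54 at one probe (mean 128 CPM). Its other probe (mean 861 CPM) had changes of 0.08 and 0.08. The G protein regulator Rgs2 rose by 0.53 and 0.53 at one probe, and the other had changes of 0.04 and 0.03. Ift88, Zfc3h1 and LOC108348078 were the other symbols, and their other probes had changes above 0 that were not called. These were 0.295 and 0.392 for Zfc3h1 and 0.46 and 0.46 for LOC108348078. For Ift88 they were 0.447 and 0.482 at one probe and 0.055 and 0.013 at another. Insig1, Cyp51, Pfn1, Klf6 and Clk1 had 1 probe each.

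Of the other lists of liver pathways, none had a member called with both controls in the fit of 30 libraries. They include fatty acid synthesis, bile acids, NRF2 targets, the ATF4 response, unfolded protein response, heat shock, AhR, CAR and PXR and PPARα targets, acute phase, oxidative phosphorylation, one-carbon and aldehyde metabolism, and cell cycle. Without the 3 NM libraries that stand apart, 6 of 93 genes of these lists examined in that fit were called with both: Acss2 (acetyl-CoA synthetase), Plin2 (a lipid droplet coat protein), Aldh3a1, Alas1 and Hamp were lower and Slc2a1 (a glucose transporter) was higher. Acss2 changed there by -1.2 against medium (adjusted p = 0.012) and -0.98 against DMSO (adjusted p = 0.0139), and Slc2a1 by 1.48 (adjusted p = 0.000968) and 1.30 (adjusted p = 0.000582). Over all probes that fit called 182 with both controls, 128 higher and 54 lower. The 93 were mostly the up to 4 members per list with the largest changes of the same sign in these data. Their count is therefore not a share of the lists. Other members of these lists were not examined in that fit. In the fit of 30 libraries many members differed from DMSO only. Of 30 probes for hepatocyte identity and secreted proteins, 0 were called against medium and 20 were lower against DMSO, with median changes of -0.08 and -0.98. PPARα targets gave 0 of 31 and 20 of 31 lower (medians -0.29 and -0.86), and 9 of 31 lower against the low NM concentrations. Fabp1, the liver fatty acid carrier, averaged 17.4 ± 7.8 CPM in NM 10 mM, 38 ± 6.9 CPM in medium and 206 ± 45 CPM in DMSO, a change of -1.12 (adjusted p = 0.149) and -3.56 (adjusted p = 1.75e-06). Car3, carbonic anhydrase 3, averaged 110 ± 22 CPM in NM 10 mM, 94.1 ± 42 CPM in medium and 10.3 ± 3.6 CPM in DMSO, 0.23 (adjusted p = 0.608) and 3.42 (adjusted p = 5.21e-08). In all, 910 probes were called against DMSO and not medium, and 27 against medium and not DMSO (20 higher and 7 lower). Scd2, a stearoyl-CoA desaturase and SREBP target, was one of these 27, at 341 ± 96 CPM in NM 10 mM, 634 ± 37 CPM in medium and 444 ± 14 CPM in DMSO (-0.89 ± 0.19, adjusted p = 0.0219, and -0.38 ± 0.19, adjusted p = 0.238).

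Across the NM series the means of Insig1, Cyp51, Acat2 and Fdft1 stepped down over the 3 highest concentrations. Insig1 averaged 707, 686, 734, 622 and 679 CPM over the 5 steps up to 0.3 mM, and 540, 444 and 352 CPM at the 3 above. The SD at 1 mM was 131 CPM and at 10 mM 73.2 CPM, so neighbouring steps overlap within their spread. Cyp51 stayed at 245 to 277 CPM up to 0.3 mM and was 227 ± 11.7, 202 ± 13.9 and 160 ± 5.58 CPM at 1, 3 and 10 mM. Against the 12 libraries of the 4 lowest concentrations, Insig1 differed by -0.96 ± 0.14 (adjusted p = 0.000131) and Cyp51 by -0.70 ± 0.07 (adjusted p = 4.23e-06). Mvk had no such steps, with 41.3 ± 3.99 CPM at 3 mM and 31 ± 3.74 CPM at 10 mM. Pfn1 averaged 4.13 to 6.92 CPM up to 0.3 mM and then 8.1 ± 3.12, 14.6 ± 4.2 and 22.2 ± 3.93 CPM, and Clk1 15.7 ± 3.11, 19.8 ± 7.26 and 28.4 ± 2.63 CPM. The levels at 1 and 3 mM each include a library that stands apart, and rows F, G and H of the plate held 1, 3 and 10 mM.

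**Figure D4:**
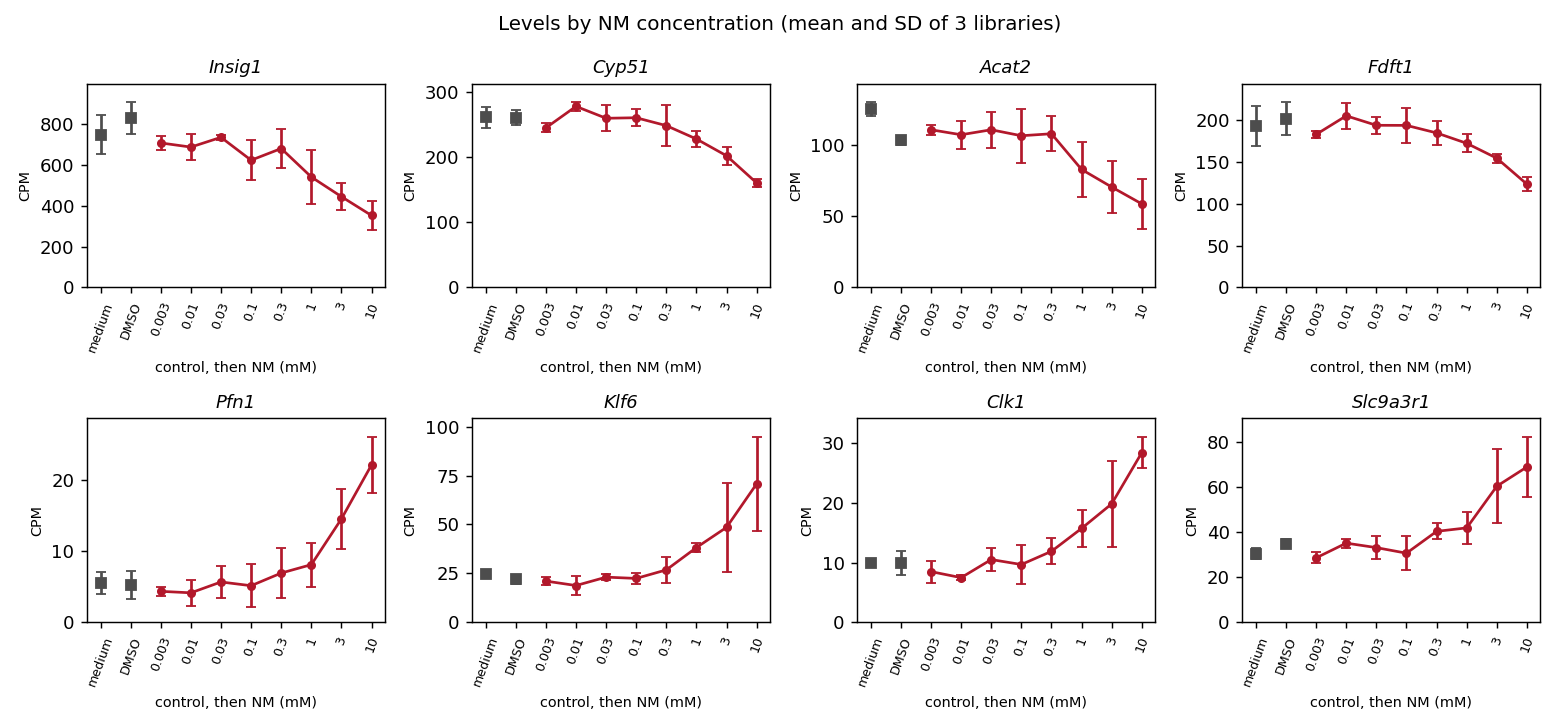
Mean CPM and SD of 3 libraries for 8 genes in medium, DMSO and NM from 0.003 to 10 mM (evenly spaced steps, y axes from 0). Insig1 declines to 352 CPM and Pfn1 climbs to 22.2 CPM at 10 mM.

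Nitroethane (NE), with 1 carbon more, was given at the same 10 mM in the same library set. NM 10 mM and NE 10 mM differed at 2936 of 11966 probes (24.5%; 1590 higher, 13.3%, and 1346 lower, 11.2%, in NM), and 4705 without NM 10 mM replicate 3 and NE 10 mM replicate 2, a library with counts in 21627 probes. Insig1 was lower with NM, at 352 ± 73.2 CPM against 579 ± 148 CPM with NE (-0.75, 95% interval -1.17 to -0.32, adjusted p = 0.0132). Cyp51 was higher with NM, at 160 ± 5.58 CPM against 63.6 ± 15.2 CPM with NE (1.30, interval 0.97 to 1.63, adjusted p = 3.95e-05), and so was Acat2, at 58.6 ± 17.6 CPM against 30 ± 7.1 CPM (0.94, adjusted p = 0.00495). For Pfn1 the difference of 0.78 had an interval of -0.16 to 1.71, and for Clk1 the difference of -0.11 had one of -0.74 to 0.51. Of the 51 probes that rose, 15 were higher with NM than NE and 2 lower; of the 16 that fell, 4 were higher and 6 lower. Klf6 had 70.8 ± 24 CPM with NM and 34.7 ± 10.4 CPM with NE (0.98, adjusted p = 0.012). Rgs2 was also higher with NM than NE (2.66).

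1-Nitropropane (1NP), with 2 carbons more than NM, was run in a second library set with its own medium wells, so effects against medium were compared. The effect of NM 10 mM differed from that of 1NP 10 mM at 0 of 11862 probes in edgeR (0%), with 1248 at an unadjusted p under 0.05, and at 0 in DESeq2. 1NP 10 mM replicate 3 stood apart, with correlations of 0.895 and 0.901 with its group mates, which correlated at 0.989. The edgeR count was also 0 without this library, and without it and NM 10 mM replicate 3. For Insig1 the difference of effects was -1.2 with an interval of -1.82 to -0.58 (adjusted p = 0.47). Its levels were 352 ± 73.2 CPM in NM 10 mM and 747 ± 94.3 CPM in medium of set 1, and 541 ± 57.9 CPM in 1NP 10 mM and 493 ± 98.8 CPM in medium of set 2. For Pfn1 the difference was 0.35 (-1.54 to 2.24). The second set's control means were also set beside those of the first at these probes. Of the 51 probes that rose, 42 had a set 2 medium mean and 48 a set 2 DMSO mean above both set 1 control means, and of the 16 that fell, 12 and 7 had one below both. The same shares over all probes were not counted, and the 51 and 16 were chosen by their set 1 control levels. These counts therefore do not show a trait of the members. The mean of the set 2 DMSO wells exceeded the NM 10 mM mean at 24 of the 51 probes that rose, and that of set 2 medium at 2 of 51, while neither was below the NM 10 mM mean at any of the 16 that fell. Pfn1 averaged 31.9 ± 8.42 CPM in set 2 DMSO and Clk1 27.3 ± 3.18 CPM, beside 22.2 and 28.4 CPM in NM 10 mM. The part of plate or set in the rises was not tested.

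Rifampin at 40 µM occupied row H with NM 10 mM. Clk1 averaged 28.4 ± 2.63 CPM in NM 10 mM and 17 ± 3.76 CPM with rifampin, Klf6 70.8 ± 24 and 35.5 ± 1.95 CPM, Pfn1 22.2 ± 3.93 and 9.18 ± 3.38 CPM, Insig1 352 ± 73.2 and 576 ± 108 CPM, and Cyp51 160 ± 5.58 and 204 ± 7.33 CPM. In each of these 5 the rifampin mean lay between NM 10 mM and both set 1 controls, but not in every member. Orai3, for one, averaged 91.4 CPM with rifampin, above both controls. All 3 rifampin libraries lay above the 6 controls at 10 of the 51 (2.77% of all probes) and below them at 5 of the 16 (2.58%). The 51 and 16 were chosen by these control levels, so the counts do not show a trait of the members. Benzo[a]pyrene at 50 µM, in row C, had Insig1 at 319 ± 78.1 CPM and Cyp51 at 131 ± 20.8 CPM.

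**Figure D5:**
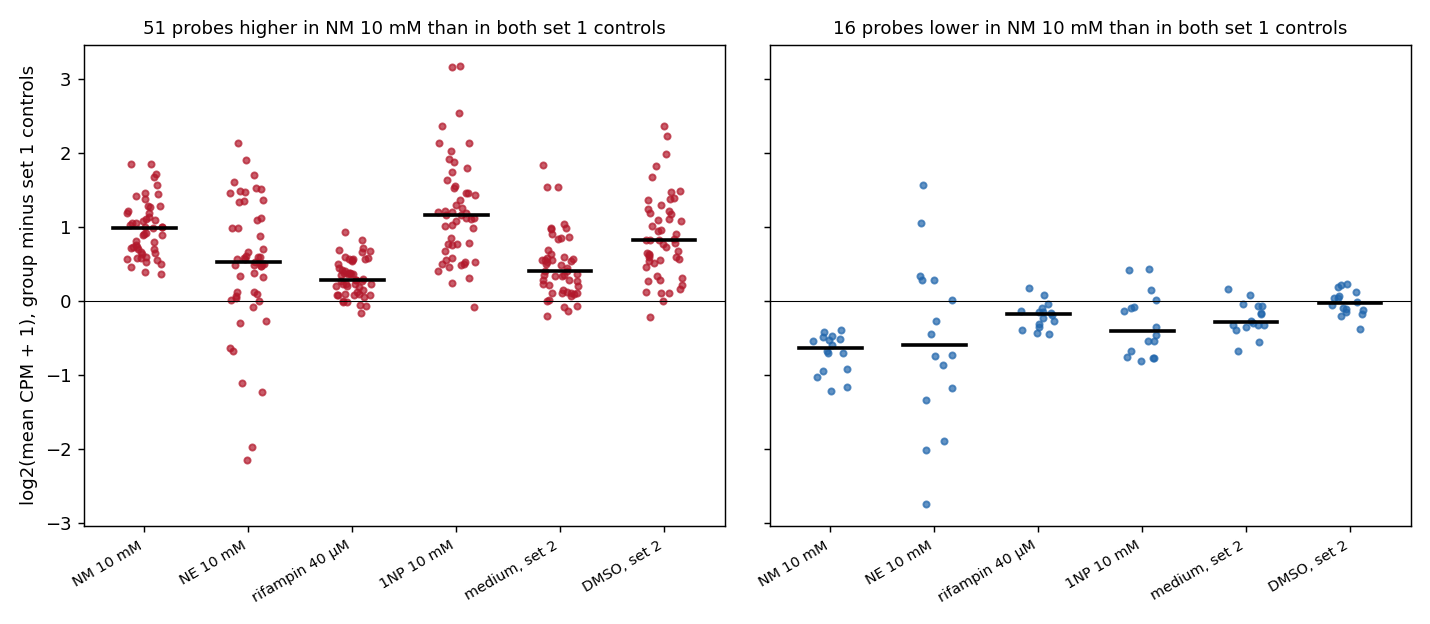
Difference of log2(mean CPM + 1) from the mean of the set 1 medium and DMSO wells, for the 51 probes that rose (left) and the 16 that fell (right) in NM 10 mM, in 6 groups (points are probes, bars medians). In NM 10 mM the medians are 0.98 for the probes that rose and -0.63 for those that fell, and in NE 10 mM 0.53 and -0.59.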

How the data were processed

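TempO-Seq probe counts from 105 libraries were deposited by the authors as one table of raw counts per probe, whole numbers that were not normalized. Per the submitters' processing notes the pipeline used DESeq2 1.28.1, R 3.5.3, Bowtie and FastQC, whose steps are not described, and a build is not given in the sources used here. The panel is named as a human one in the labels, while 15980 of 20946 symbols matched the rat RefSeq table (GRCr8). A panel reads one short site per probe, so levels are compared within a probe.

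The counts were analysed in R 4.3.3 with edgeR 4.0.16 (quasi-likelihood test, limma 3.58.1 loaded with it), TMM normalization and filterByExpr (minimum count 10, total 15), which kept 12261 of 22253 probes. The fit held 30 libraries with totals of 6187848 to 11122665. Calls are probes whose p, adjusted by Benjamini and Hochberg over all probes fitted, was under 0.05. Intervals and floors cover counting error or well spread only. Comparisons with NE and 1NP used fits of 12 libraries. Alternatives were RLE size factors, other filters, DESeq2 1.42.0, smaller fits, a replicate block and leaving out each library. Those on libraries that stand apart were chosen after seeing the data.

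The code was tested on simulated data. For the call with both controls over 12248 simulated probes, 13.4% of 1.5-fold, 58.2% of 2-fold and 95.5% of 4-fold changes were recovered, so small changes were often missed. Genes were named by rule: all members of both cholesterol lists, Pfn1, Fabp1, Car3 and Ccng1, up to 25 per direction called with both controls (mean of at least 5 CPM, largest smaller change of the contrasts), up to 4 per other list, and up to 8 per direction called against medium only. Cct5, Ctnnd1, Dusp10, Fnbp1l, Glt1d1, Hnrnpk, Mysm1, Otud1, Pafah1b2, Podxl, Rgs2, Ube2e3, Ube2k and Ugt1a9 fall outside it and were chosen after their values were seen. The members and the 32 gene lists were chosen with earlier results of these data known. Some genes are not reported here.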

Additional observations from a re-analysis of the deposited data

How the results depend on the processing

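Counts of calls depended on the libraries in the fit more than on scaling. With RLE size factors, no filter on low counts and the replicate block, the count with both controls was 72, 49 and 72, against 67 as reported. Deviations of same-numbered wells correlated at 0.001 to 0.072 between NM 10 mM and medium, -0.012 to 0.023 between NM 10 mM and DMSO, and 0.157, -0.026 and 0.204 between medium and DMSO. Since not every pair passed 0.1, the numbers were not taken to pair the wells, and the replicate block gave 104 probes against medium and 928 against DMSO. With probes of at least 5 CPM the counts were 145 against medium and 102 with both. DESeq2 gave 264 and 161, and 8 cholesterol enzymes with both. The fit of 9 libraries gave 1 against medium, 324 against DMSO and 1 with both, and 6 libraries gave 0, 47 and 0. Without the 3 NM libraries that stand apart, chosen after seeing the data, the counts were 282 against medium and 182 with both, and the 9 libraries less NM 10 mM replicate 3 gave 378, 1480 and 237. NM against NE gave 4705 without the NM and NE libraries that stand apart. Leaving out single libraries gave 12 to 170 against medium, 560 to 1174 against DMSO, 11 to 115 with both and 228 to 1268 against the low NM concentrations. The cause was not tested. Of 57 named genes called against medium, 0 kept the call under every alternative. That 0 was fixed by the fit of 6 libraries, which called 0 probes against medium, so it does not describe the genes. Of 82 called against DMSO, 9 kept the call under every alternative. None changed sign while called. With 3 wells per group, small changes are near the limit of detection.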
